A study of Homo sapiens with 11 samples.

Results

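The 9 genes described here were picked by gene symbol from the 60605 rows of the deposited table: the HLA class I heavy chain genes HLA-B, HLA-C, HLA-E and HLA-F, the light chain gene B2M, the peptide transporter genes TAP1 and TAP2, the tapasin gene TAPBP and the transactivator gene NLRC5. All 9 symbols were found and all 9 passed the filter on low values. The RNA came from ARPE-19, a long-established cell line derived from human retinal pigment epithelium (RPE), kept as stable lines that each carried an open reading frame (ORF) and were taken after 4 days of its expression. The control line carried GFP, a fluorescent protein (3 libraries), and the other lines carried Oct4, Sox2, Klf4, or these factors together (OSK), with 2 libraries each. The labels do not give the species of the ORFs, the promoter that drives them, or how many clones a line stands for, and the library names of the factor lines hold a tag, mC, that those of GFP do not. In comparisons with GFP, whatever that tag stands for and the factors cannot be told apart. Nothing states that libraries of a group came from separate cultures, so p-values measure the spread between these libraries, which may be technical.

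HLA class I molecules sit on the surface of nearly all nucleated cells and show peptides from the cell's own proteins to CD8+ T cells and natural killer (NK) cells. A heavy chain pairs with beta-2-microglobulin, the product of B2M. TAP1 and TAP2 form the pump that carries peptides from the cytosol into the endoplasmic reticulum, and tapasin holds the empty heavy chain beside that pump. NLRC5 raises transcription of class I genes through a promoter module bound by RFX, CREB and NF-Y proteins. Interferons raise it further, in part through the factor IRF1. The RPE lines an immune-privileged site of the eye.

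Each line was checked against its label. POU5F1, the human gene for Oct4, was at 66823 to 67326 normalised counts in Oct4 and 19020 to 19542 in OSK, against 174 to 446 in the other lines. SOX2 was at 29106 to 29141 in Sox2 and 17582 to 17764 in OSK (43.7 to 197 elsewhere), and KLF4 at 22142 to 24205 in Klf4 and 24202 to 24470 in OSK (45.5 to 248 elsewhere). Depth was 15053300 to 19791775 recovered reads a library. GFP replicate 1 and OSK replicate 1 stood apart, with 42956 and 32493 features detected against 25853 to 26971 in the others. The summed level of 13 RPE markers was 12849 to 16545 in GFP, 8164 to 9863 in Klf4, 5703 to 6067 in OSK, 4412 to 5013 in Oct4 and 2551 to 2601 in Sox2. Among them RPE65, the retinoid isomerase that defines mature RPE, was at 0 to 4.63 normalised counts in every library, DCT at 0 to 9.93 and TTR at 0 to 4.97. Most of the sum came from PMEL, TYRP1, MITF and OTX2, and some markers rose while the sum fell. MERTK was at 84.8 to 163 in Oct4, Sox2 and OSK and 20.8 to 34.3 in Klf4, against 58.7 to 64.6 in GFP. OTX2 was at 2267 to 2372 in Klf4 against 1804 to 1952 in GFP. The 10 leukocyte markers summed to 182 in GFP replicate 1, 40.1 in OSK replicate 1 and 4.57 to 15.1 in the other 9 libraries, and PTPRC, the pan-leukocyte gene, reached at most 2.24. The 5 endothelial markers, nearly all KDR, summed to 1094 to 1361 in GFP and 536 to 892 in the factor lines. Fibroblast markers (6 genes), mostly COL1A1, summed to 3012 to 4899 in GFP and ranged from 618 in OSK to 8429 in Sox2. COL1A1 was at 8369 and 7029 in Sox2 against 2884 to 4845 in GFP. THY1 went the other way, with 22.4 and 16.3 in Sox2 against 32.4 to 71.5 in GFP. The part of these marker levels in the results below was not tested. In bulk RNA, fewer cells of a type and less RNA per cell cannot be told apart.

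Of the members, 7 had a promoter in the RefSeq table (GRCh38.p14), and HLA-E and NLRC5 did not. The stretches below are shown because they hold letters that resemble sites of the factors named above. Capitals mark matches, on either strand, to AANNGAAA (the core of an interferon regulatory factor, IRF, site), TGACG (a CREB-like site of the NLRC5 module) and GATTGG (the core of the NF-Y box). Overlapping matches run together as one capital stretch.
HLA-B, chr6:31357221-31357429, minus strand: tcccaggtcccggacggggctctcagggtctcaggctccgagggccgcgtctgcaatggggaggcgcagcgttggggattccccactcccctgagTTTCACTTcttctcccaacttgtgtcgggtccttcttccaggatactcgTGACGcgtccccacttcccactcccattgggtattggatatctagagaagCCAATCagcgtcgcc
HLA-C, chr6:31272134-31272342, minus strand: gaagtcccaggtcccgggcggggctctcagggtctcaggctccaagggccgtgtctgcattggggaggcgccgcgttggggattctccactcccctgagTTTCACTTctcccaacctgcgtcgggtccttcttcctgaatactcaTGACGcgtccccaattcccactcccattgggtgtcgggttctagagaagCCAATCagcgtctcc
B2M, chr15:44711267-44711475, plus strand: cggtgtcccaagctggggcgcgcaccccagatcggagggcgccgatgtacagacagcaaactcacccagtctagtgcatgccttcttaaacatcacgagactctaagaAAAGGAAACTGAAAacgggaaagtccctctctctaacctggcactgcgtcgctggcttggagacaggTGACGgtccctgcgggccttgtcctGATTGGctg
TAP2, chr6:32838781-32838989, minus strand: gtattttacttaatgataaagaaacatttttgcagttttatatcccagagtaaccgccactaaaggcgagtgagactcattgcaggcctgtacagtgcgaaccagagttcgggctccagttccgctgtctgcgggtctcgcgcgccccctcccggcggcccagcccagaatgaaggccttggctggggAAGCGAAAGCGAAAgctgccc
HLA-F, chr6:29723268-29723297, plus strand: ctccccagagTTTCTCTTtctctcccaacc
TAP1, chr6:32853816-32853845, minus strand: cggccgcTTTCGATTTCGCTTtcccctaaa
TAPBP, chr6:33314079-33314108, minus strand: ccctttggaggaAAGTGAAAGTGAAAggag

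The first 4 run from base -250 to base -42 before the RefSeq start, and the last 3 are 30-base pieces around the IRF-like letters. Those 3 pieces lie before the RefSeq start but inside the gene spans of another annotation, GENCODE, given below. Over the 250 bases before the start, AANNGAAA was found in all 7 members, against 20.3% of 35116 RefSeq windows of that length. TAP1 has 2 such windows in the table, and the matches given for it are all in the one shown, with none of the patterns in the other. A tandem form that overlaps it (GAAA, any 2 bases, GAAA) was found in HLA-F, B2M, TAP1, TAP2 and TAPBP (3.02% of windows). TGACG was found in HLA-B, HLA-C, B2M and TAP2 (21.2%), with the TAP2 match closer to the start than the stretch shown. GATTGG was found in HLA-B, HLA-C, HLA-F and B2M (14.1%), and an NF-kB-like pattern not capitalised here (GGG, any 2 bases, TT, any base, CC) in HLA-B, B2M, TAP1 and TAPBP (5.07%). HLA-B and HLA-C carried their IRF-like letters at bases -155 to -148 and -151 to -144. A match describes letters, not binding, and a missing match says only that these letters are not in the window.

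In GENCODE release 29 (GRCh38) HLA-F (chr6:29722775-29738528, plus strand), HLA-E (chr6:30489467-30494205, plus), HLA-C (chr6:31268749-31272130, minus) and HLA-B (chr6:31269491-31357188, minus) lie in the major histocompatibility complex. TAP2 (chr6:32821833-32838780), TAP1 (chr6:32845209-32853978) and TAPBP (chr6:33299694-33314387), all on the minus strand, lie further along the same chromosome. B2M (chr15:44711487-44718877) and NLRC5 (chr16:56989485-57083531) are on the plus strand of other chromosomes. The annotated span of HLA-B covers most of that of HLA-C, on the same strand. Counts of the pair are thus uncertain where a read fits both. Strand use in counting is not given in the sources used here and would not separate the pair. In the annotation's transcripts, 31.3% of the 50-base windows of TAP2 also occur in another gene, against 0 to 5.38% for the other 8 members. By this measure alone, TAP2 counts are the least certain of the set. Per kilobase of annotated exon, GFP means were 3678 normalised counts for HLA-C, 2080 for HLA-E, 1491 for B2M, 1187 for HLA-B, 293 for TAPBP, 106 for TAP1, 70.3 for HLA-F, 42.9 for NLRC5 and 6.26 for TAP2. On that scale of level, the chains and B2M stood above the loading genes, and HLA-F stood with the latter.

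All 9 class I and loading genes were higher than GFP in the Klf4 line and in OSK, 8 were higher in Oct4, and 6 were higher in Sox2, where NLRC5 was lower. Against these counts stand the shares of all 18828 features tested that were called in the same direction: 17.6% higher in Klf4 vs GFP, 19.7% higher in OSK vs GFP, 20.1% higher in Oct4 vs GFP, 21.7% higher and 19.9% lower in Sox2 vs GFP. The members' median log2 change was 1.39 in Klf4, 1.79 in OSK, 1.07 in Oct4 and 0.49 in Sox2, beside medians over all features of -0.021, -0.010, -0.016 and -0.017. These comparisons share the GFP libraries. Together 6 members were called higher in all 4 factor lines, as were 633 of the features tested (3.36%). Of the 9, 8 were called higher in Oct4, Klf4 and OSK alike, as were 879 features (4.67%). Without the 2 libraries that stood apart, 9 members were higher in Oct4, Klf4 and OSK, and 5 were higher and 1 lower in Sox2.

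**Figure D1:**
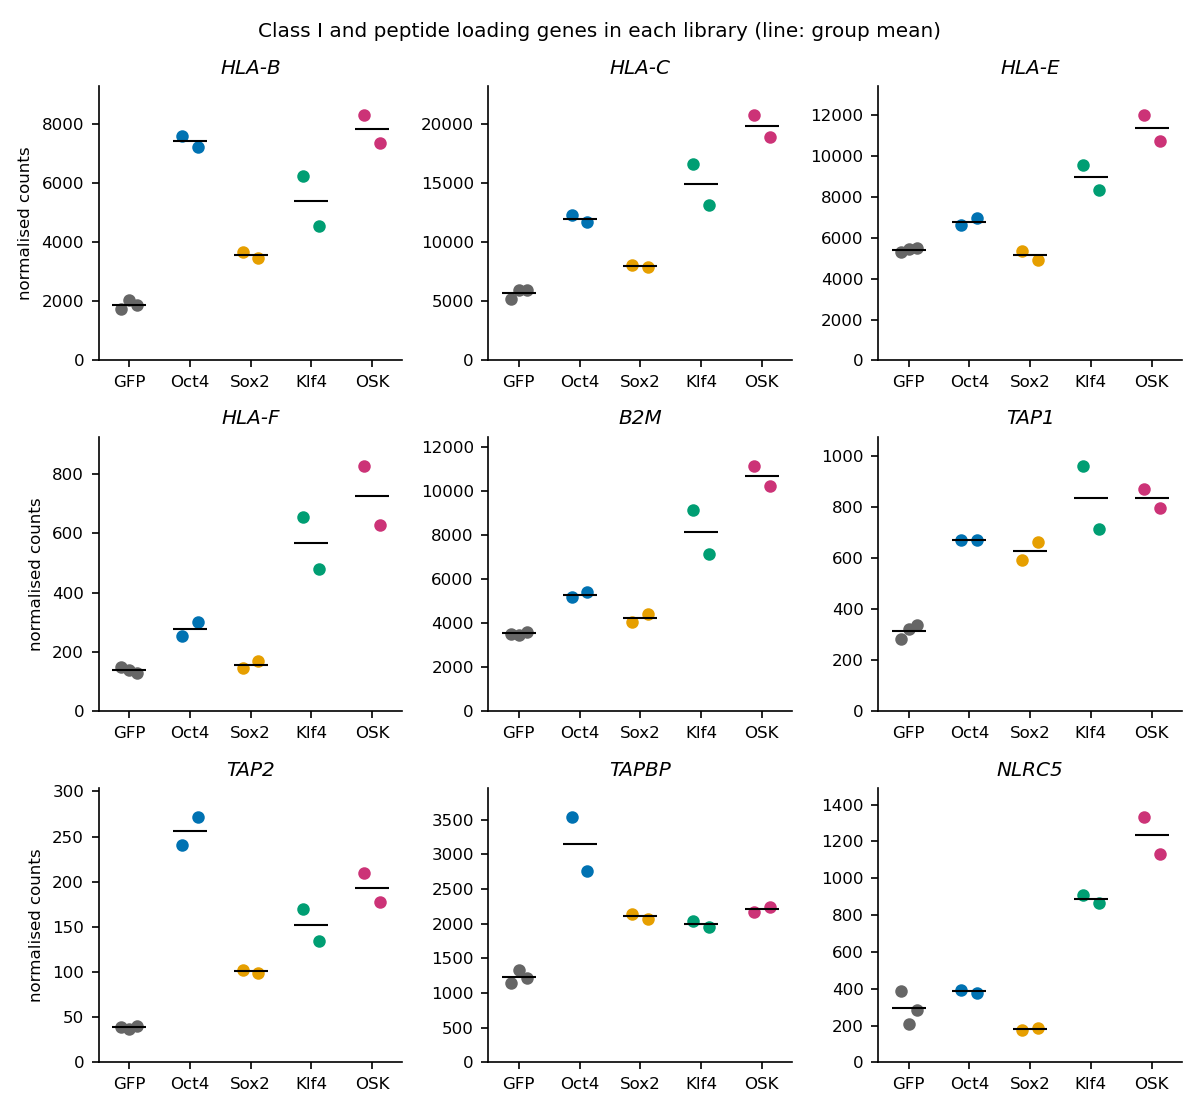
Normalised counts of the 9 class I and loading genes (y axis, from 0, own scale per gene) in each library of the GFP, Oct4, Sox2, Klf4 and OSK lines (x axis); points are libraries and lines are group means. OSK holds the highest means of HLA-B, HLA-C, HLA-E, HLA-F, B2M and NLRC5, whereas TAP2 and TAPBP are highest in Oct4 and TAP1 is near 836 in Klf4 and 835 in OSK.

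HLA-B, one of the classical peptide-presenting heavy chains, was at 1752, 2033 and 1861 normalised counts in GFP. It was at 7593 and 7198 in Oct4, 3670 and 3442 in Sox2, 6245 and 4542 in Klf4, and 8274 and 7342 in OSK. Every factor library was above every GFP library, and the Oct4 and OSK libraries overlapped each other. The mean was 1882 ± 142 in GFP (SD, n = 3) and 7395 ± 279 in Oct4 (SD, n = 2), a ratio of 3.93 (log2 change 1.98, SE 0.11, adjusted p = 8.83e-10). In OSK the ratio to GFP was 4.15 (adjusted p = 5.87e-10), in Klf4 2.87 (adjusted p = 2.72e-08) and in Sox2 1.89 (adjusted p = 3.56e-06).

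HLA-C, the other classical chain here and a main ligand of inhibitory KIR receptors on NK cells, was at 5224, 5954 and 5970 normalised counts in GFP. Its values were 12308.5 and 11689.1 in Oct4, 8107 and 7875 in Sox2, 16643 and 13142 in Klf4, and 20723 and 18885 in OSK. The lines ranked OSK, Klf4, Oct4, Sox2 and GFP, with no overlap between neighbours. The log2 change from GFP was 1.79 in OSK, 1.37 in Klf4, 1.07 in Oct4 and 0.49 in Sox2 (SE 0.09 for each), with adjusted p of 5.75e-10, 1.59e-08, 1.9e-07 and 0.000517. HLA-B thus rose by 1.98 and HLA-C by 1.07 in Oct4, whereas in Klf4 they rose by 1.50 and 1.37.

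HLA-E, a non-classical chain that presents leader peptides of other class I chains to NK cells, changed less than the classical chains. It was at 5288, 5434 and 5511 normalised counts in GFP, 6608 and 6956 in Oct4, and 5372 and 4929 in Sox2. In Klf4 it was at 9538 and 8354 and in OSK at 11981.8 and 10706.4. Oct4, Klf4 and OSK libraries lay above all GFP libraries, and the Sox2 libraries overlapped them. The log2 change was 0.33 in Oct4 (adjusted p = 0.00285), 0.72 in Klf4 (adjusted p = 1.87e-06) and 1.07 in OSK (adjusted p = 1.61e-08; SE 0.08 for each). In Sox2 it was -0.072, which did not pass the test (adjusted p = 0.483).

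HLA-F, a non-classical chain found partly without peptide, had the lowest GFP level of the chains per kilobase and was at 151, 139 and 129 normalised counts in GFP. It was at 253 and 302 in Oct4, 145 and 169 in Sox2, 654 and 479 in Klf4, and 825 and 628 in OSK. Sox2 overlapped GFP, and Klf4 overlapped OSK. Relative to GFP the means were 5.20 times as high in OSK (log2 change 2.36, SE 0.15, adjusted p = 5.53e-09), 4.06 times in Klf4 (adjusted p = 6.03e-08) and 1.99 times in Oct4 (adjusted p = 8.76e-05). In Sox2 the log2 change was 0.16 (adjusted p = 0.425). HLA-F had the largest log2 change of the 4 chains in Klf4 and OSK, and HLA-B had it in Oct4 and Sox2, an order of estimates that was not itself tested.

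B2M, the light chain shared by all class I molecules, was at 3531, 3483 and 3626 normalised counts in GFP. It was at 5175 and 5439 in Oct4, 4064 and 4417 in Sox2, 9141 and 7146 in Klf4, and 11122 and 10239 in OSK. No 2 lines overlapped. The log2 change from GFP was 1.59 in OSK (adjusted p = 1.05e-09), 1.19 in Klf4 (adjusted p = 4.2e-08) and 0.58 in Oct4 (adjusted p = 7e-05; SE 0.09 for each). In Sox2 it was 0.26 (adjusted p = 0.0276), a call that was lost without either Sox2 library, where the log2 change was 0.20 to 0.32 (adjusted p = 0.222 and 0.0505), and without GFP replicate 2 (0.24, adjusted p = 0.0642).

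The ratio of chain to chain within a library removes the library's own scaling. HLA-B per HLA-E was 0.331 to 0.374 in GFP, 1.03 to 1.15 in Oct4, 0.683 to 0.698 in Sox2, 0.544 to 0.655 in Klf4 and 0.686 to 0.691 in OSK. The ratio, of counts not divided by length, was highest in the Oct4 libraries and lowest in GFP. HLA-C per B2M was 1.48 to 1.71 in GFP and 1.78 to 2.38 in the factor lines, highest in Oct4 (2.15 to 2.38). HLA-E per B2M went the other way, from 1.50 to 1.56 in GFP to 1.05 to 1.08 in OSK. The 4 chains and B2M together took 0.0966% to 0.0982% of the recovered reads in GFP, 0.123% to 0.126% in Sox2, 0.176% to 0.177% in Oct4, 0.189% to 0.235% in Klf4 and 0.279% to 0.310% in OSK.

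**Figure D2:**
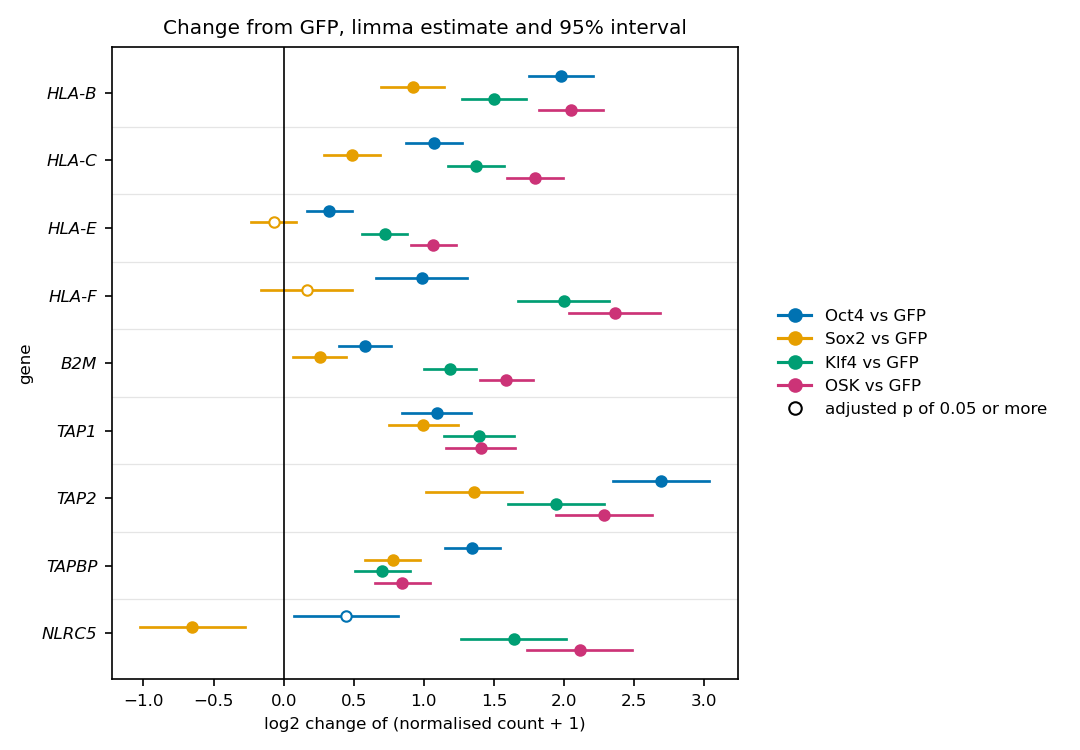
Log2 change of each class I and loading gene from GFP (x axis, log2 of normalised count + 1) with its 95% interval from the limma fit, in the Oct4, Sox2, Klf4 and OSK lines; open points did not pass an adjusted p of 0.05. The Sox2 estimates of HLA-E and HLA-F and the Oct4 estimate of NLRC5 are open, and Sox2 NLRC5 (-0.65) is the only filled point below 0.

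TAP1, the first subunit of the peptide pump, was at 283, 323 and 339 normalised counts in GFP. It was at 670 and 670.7 in Oct4, 594 and 664 in Sox2, 960 and 713 in Klf4, and 873 and 797 in OSK. All factor libraries were above all GFP libraries, and the OSK values lay inside the range of the Klf4 pair. The log2 changes from GFP were 1.09 in Oct4, 1.00 in Sox2, 1.39 in Klf4 and 1.41 in OSK (SE 0.12), with adjusted p of 1.78e-06, 3.7e-06, 1.65e-07 and 9.1e-08.

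TAP2, its partner, was low in GFP, at 38.7, 37.4 and 39.9 normalised counts. It reached 240 and 271 in Oct4, 102 and 99.3 in Sox2, 170 and 135 in Klf4, and 209 and 177 in OSK. Here Oct4, not OSK, held the highest libraries, and no 2 lines overlapped. The Oct4 mean of 256 ± 21.8 (SD, n = 2) was 6.62 times that of GFP, 38.7 ± 1.21 (SD, n = 3), the largest ratio of any member in any line (log2 change 2.69, SE 0.16, adjusted p = 2.93e-09). The ratio to GFP was 4.99 in OSK (adjusted p = 1.63e-08), 3.94 in Klf4 (adjusted p = 1.65e-07) and 2.60 in Sox2 (adjusted p = 4.67e-06). Within libraries TAP2 counts were 0.116 to 0.137 of TAP1 counts in GFP and 0.359 to 0.404 in Oct4, with 0.150 to 0.240 in the other lines. The part of the sequence that TAP2 shares with another gene in these values was not tested.

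TAPBP, which encodes tapasin, was at 1139, 1327 and 1219 normalised counts in GFP, 3531 and 2756 in Oct4, 2145 and 2064 in Sox2, 2038 and 1954 in Klf4, and 2173 and 2235 in OSK. The Oct4 libraries stood above all others, and those of Sox2, Klf4 and OSK lay between 1954 and 2235. The log2 change was 1.35 in Oct4 (adjusted p = 1.21e-08), 0.85 in OSK (adjusted p = 2.03e-06), 0.78 in Sox2 (adjusted p = 4.19e-06) and 0.70 in Klf4 (adjusted p = 2.03e-05; SE 0.09 for each).

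NLRC5, the transactivator of the class I genes, had a pattern of its own. It was at 388, 207 and 283 normalised counts in GFP, a mean of 293 ± 90.9 (SD, n = 3) with the highest value in GFP replicate 1. It was at 392 and 379 in Oct4, 174 and 187 in Sox2, 909 and 864 in Klf4, and 1330 and 1134 in OSK. Sox2 lay below every GFP library, Oct4 overlapped GFP replicate 1, and Klf4 and OSK lay above all others. The mean ratio to GFP was 4.21 in OSK (log2 change 2.11, SE 0.17, adjusted p = 9.22e-08) and 3.03 in Klf4 (1.64, adjusted p = 2.36e-06). In Sox2 NLRC5 fell by 0.65 on the log2 scale (ratio 0.616, adjusted p = 0.0068), a call that was lost without Sox2 replicate 1 (adjusted p = 0.0652). Without GFP replicate 1 the Sox2 change was smaller and still called (-0.42, adjusted p = 0.0109). In Oct4 the log2 change was 0.44 (adjusted p = 0.0591), and without GFP replicate 1 it was 0.67 (adjusted p = 0.000337). HLA-B, HLA-C, TAP1, TAP2 and TAPBP were thus higher in Sox2 than in GFP while NLRC5 was lower.

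OSK was next compared with each single-factor line. By the levels given above, POU5F1 was lower in OSK than in Oct4, and SOX2 was lower in OSK than in Sox2. Against those lines, the level of the shared factor and the presence of the other factors cannot be told apart. Against Oct4, OSK was higher for HLA-C, HLA-E, HLA-F, B2M and NLRC5 and lower for TAPBP (5 and 1 of 9 members, with 18.4% of all features called higher and 21.9% lower in OSK vs Oct4). Log2 differences of 0.72, 0.74, 1.38, 1.01 and 1.67 were estimated for the 5, and -0.50 for TAPBP (adjusted p = 0.000801), or -0.32 without Oct4 replicate 1 (adjusted p = 0.0208). HLA-B did not differ detectably (log2 difference 0.076, 95% interval -0.17 to 0.33, adjusted p = 0.651). TAP1 (0.32, adjusted p = 0.0611) and TAP2 (-0.41, adjusted p = 0.0829) missed the threshold although their libraries did not overlap. TAP1 passed it without GFP replicate 1 (adjusted p = 0.0326) or without either Klf4 library (adjusted p = 0.0275 and 0.0268), libraries that enter only the estimate of spread.

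Against Sox2, OSK was higher for 8 of 9 members (20% of all features were higher in OSK vs Sox2), from TAP1 (0.41, adjusted p = 0.0172) to NLRC5 (2.76, adjusted p = 1.13e-08). The TAP1 call was lost without Sox2 replicate 1 (adjusted p = 0.142) or OSK replicate 1 (adjusted p = 0.131). TAPBP was the exception, with a log2 difference of 0.067 (95% interval -0.15 to 0.28, adjusted p = 0.643).

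Against Klf4, OSK was higher for HLA-B (0.55, adjusted p = 0.00279), HLA-C (0.42, adjusted p = 0.00712), HLA-E (0.34, adjusted p = 0.00652) and B2M (0.40, adjusted p = 0.00636), or 4 of 9 members, and 9.56% of all features were higher in OSK vs Klf4. These calls rest on single libraries: none of the 9 members was called without Klf4 replicate 2 or without OSK replicate 1. HLA-F, TAP1, TAP2, TAPBP and NLRC5 had log2 differences of 0.36, 0.012, 0.34, 0.14 and 0.47, and the interval of NLRC5 ran from 0.063 to 0.88 (adjusted p = 0.099). NLRC5 passed without GFP replicate 1 or 2 (adjusted p = 0.00937 and 0.0188), which enter only the estimate of spread. Within the Klf4 line all 9 members were higher in replicate 1 than in replicate 2, against 51.0% of all features tested, and within OSK 8 of 9 were (48.8%). HLA-C, HLA-E and B2M were called higher in OSK than in each of the 3 single-factor lines, as were 576 of the features tested (3.06%).

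**Figure D3:**
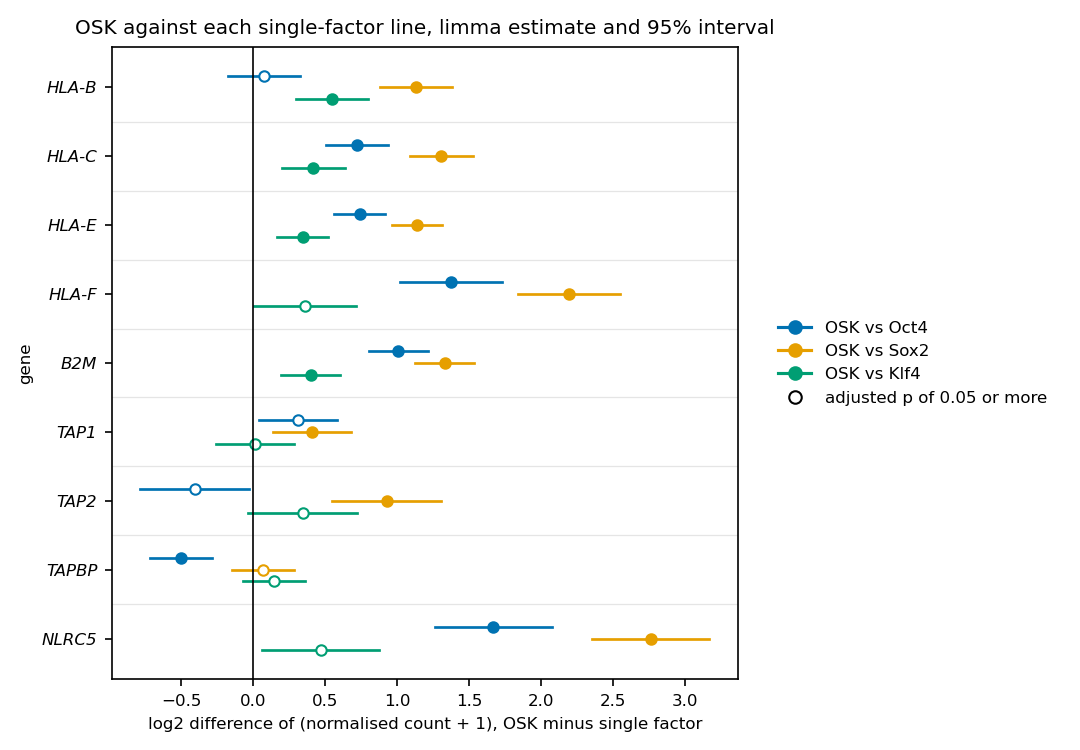
Log2 difference of each class I and loading gene between OSK and each single-factor line (x axis, OSK minus single factor, log2 of normalised count + 1) with its 95% interval from the limma fit; open points did not pass an adjusted p of 0.05. The HLA-B interval for OSK vs Oct4 straddles 0, at 0.076, TAPBP lies below 0 against Oct4 at -0.50, and most differences from Klf4 are smaller than those from Sox2.

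The single-factor lines also differed from each other. Oct4 was above Sox2 for 8 of 9 members (18% of all features were higher in Oct4 vs Sox2), and only TAP1 did not pass (log2 difference 0.095, 95% interval -0.18 to 0.37). The B2M call (0.32, adjusted p = 0.0157) was lost without Oct4 replicate 2 (adjusted p = 0.111) or Sox2 replicate 1 (adjusted p = 0.143). Between Oct4 and Klf4 the genes split: HLA-B (0.47), TAP2 (0.75) and TAPBP (0.64) were higher in Oct4, while HLA-C (-0.30), HLA-E (-0.40), HLA-F (-1.01), B2M (-0.61) and NLRC5 (-1.20) were lower. Beside these counts of 3 and 5, 21.8% of all features were called higher and 20% lower in Oct4 vs Klf4. The HLA-C call was lost without either Oct4 library or without Klf4 replicate 1 (adjusted p = 0.0627, 0.145 and 0.383), and the HLA-B call without Klf4 replicate 2 (adjusted p = 0.0914). Without that library the HLA-C difference was -0.47 (adjusted p = 0.00262). TAP1 (-0.30, adjusted p = 0.0694) passed without Klf4 replicate 2 (-0.52, adjusted p = 0.00561). Sox2 was below Klf4 for 8 of 9 members (20.7% of all features were lower in Sox2 vs Klf4), from TAP1 (-0.40) to NLRC5 (-2.29), with TAPBP at 0.077 (95% interval -0.14 to 0.29). HLA-B was at -0.58 there, and at -0.35 without Klf4 replicate 1 (adjusted p = 0.0185). The TAP1 and TAP2 calls between Sox2 and Klf4 were lost without Klf4 replicate 1 (adjusted p = 0.317 and 0.158), without Sox2 replicate 1 (0.158 and 0.0547), and for TAP2 without Sox2 replicate 2 (0.0694). Without Klf4 replicate 2 the TAP1 difference was -0.61 (adjusted p = 0.00174).

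Across the 11 libraries the members fell into patterns that their line means show. On log2 values, Pearson's r was 0.987 for HLA-F with B2M, 0.980 for HLA-B with TAP2, 0.976 for HLA-E with HLA-F and 0.952 for HLA-E with NLRC5, and 0.232 for TAPBP with NLRC5. These describe 5 lines and shared libraries and carry no test. The mean of the members' standardised log2 values (each gene centred and divided by its SD over the libraries) ordered the lines GFP (-1.17 to -1.11), Sox2 (-0.48 to -0.46), Oct4 (0.39 to 0.42), Klf4 (0.46 to 0.86) and OSK (1.01 to 1.22). Among features outside the set, those with the highest r to that mean over the 11 libraries were SUMF2 (0.987), TMOD3 (0.978), TECPR1 (0.971), ZNF225 (0.969), LARP4B (0.964) and KHDC4 (0.959). SUMF2 means were 2153 in GFP, 2543 in Sox2, 3233 in Oct4, 3238 in Klf4 and 3933 in OSK.

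The genes that supply and trim peptides moved with the lines in part. Of 12 such genes, all tested, 9 were higher in Oct4, 7 in Klf4 and 8 in OSK with none lower, and 4 were higher and 2 lower in Sox2. Of all features, 20.1%, 17.6% and 19.7% were higher in Oct4, Klf4 and OSK, and 21.7% were higher and 19.9% lower in Sox2. The list's median log2 changes were 1.02, 0.46, 0.45 and -0.0032 in that order. Without the 2 libraries that stood apart the counts were 9 higher and 2 lower in Oct4, 7 and 0 in Klf4, 6 and 1 in OSK, and 4 and 3 in Sox2. The endoplasmic reticulum chaperones and oxidoreductase of the loading complex, CALR, CANX and PDIA3, passed only in Sox2 in the fit of all 11 libraries, where CANX was lower (-0.31) and PDIA3 higher (0.32). Without the 2 libraries CALR was also lower in Oct4 (-0.26, adjusted p = 0.00776), OSK (-0.34, adjusted p = 0.00561) and Sox2 (-0.21, adjusted p = 0.0211), and CANX in Oct4 (-0.24, adjusted p = 0.00419).

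ERAP2, an aminopeptidase that trims peptides in the endoplasmic reticulum, was at 117, 145 and 119 normalised counts in GFP and at 1173 and 1079 in Oct4. It was at 516 and 443 in Klf4, 374 and 427 in OSK, and 126 and 135 in Sox2, which overlapped GFP. Its log2 change was 3.15 in Oct4 (adjusted p = 1.94e-11), 1.91 in Klf4 and 1.65 in OSK. ERAP1, the related aminopeptidase, changed by 1.92 in Oct4 and by 0.37 to 0.63 in the other lines, where the Sox2 call was lost without Sox2 replicate 1 (adjusted p = 0.0748). The immunoproteasome subunits, which replace the constitutive catalytic ones, rose in Oct4, Klf4 and OSK and did not pass in Sox2. PSMB9 changed by 2.98, 2.89 and 2.37 in these lines, PSMB8 by 1.21, 1.91 and 1.77, and PSMB10 by 2.41, 0.86 and 0.90. PSMB9 was at 56.6, 19.2 and 25.3 normalised counts in GFP, highest in GFP replicate 1, and at 33.7 and 24.0 in Sox2. PSMB10 shares 27.5% of its 50-base windows with another gene.

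Among upstream regulators (20 genes, all tested), 9 were higher and 2 lower in Oct4, and 7 and 5 in Klf4. In OSK 8 were higher and 3 lower, and in Sox2 4 and 5. Of all features, 20.1%, 17.6%, 19.7% and 21.7% were higher in Oct4, Klf4, OSK and Sox2, and 17.2%, 16%, 20% and 19.9% lower. The Sox2 counts lay near these shares. The list's median log2 changes were 0.21, 0.22, 0.12 and 0.12 in that order. IRF1, the interferon-induced factor that binds IRF sites in class I promoters, was at 183, 152 and 148 normalised counts in GFP and at 1719 and 1648 in Oct4. It was at 429 and 458 in Klf4, 366 and 406 in OSK, and 138 and 126 in Sox2. The Oct4 mean was 10.5 times that of GFP (log2 change 3.39, adjusted p = 3.07e-12), with 1.46 in Klf4 (adjusted p = 5.38e-08) and 1.26 in OSK (adjusted p = 1.71e-07). In Sox2 it was -0.28 (adjusted p = 0.0553), which passed without GFP replicate 3 (-0.34, adjusted p = 0.0367). IRF1 was lower in OSK than in Oct4 (log2 difference -2.12, adjusted p = 1.43e-09), whereas NLRC5 was higher there. EZH2, a histone methyltransferase of the repressive Polycomb complex, was at 210, 188 and 217 normalised counts in GFP, 360 and 414 in Klf4, and 307 and 324 in OSK. It rose by 0.91 in Klf4 (adjusted p = 4.07e-05) and by 0.62 in OSK (adjusted p = 0.000975), and its change in Sox2 (0.30, adjusted p = 0.0777) passed without Sox2 replicate 1 (0.49, adjusted p = 0.0199). NFKB1 rose by 1.06 in Oct4, 0.43 in Sox2 and 0.76 in OSK. JAK2, a kinase of interferon receptors, fell by 1.22 in Oct4, by 1.07 in Sox2 and by 0.72 in OSK. In Klf4 its change of 0.21 was not called, and it passed without GFP replicate 1 (0.38, adjusted p = 0.0133). IFNAR2 was at most 36 normalised counts in any library, and its Oct4 call (1.36, adjusted p = 0.0337) was lost without either Oct4 library (adjusted p = 0.219 and 0.0718) or without GFP replicate 2 or 3 (0.0981 and 0.0698).

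**Figure D4:**
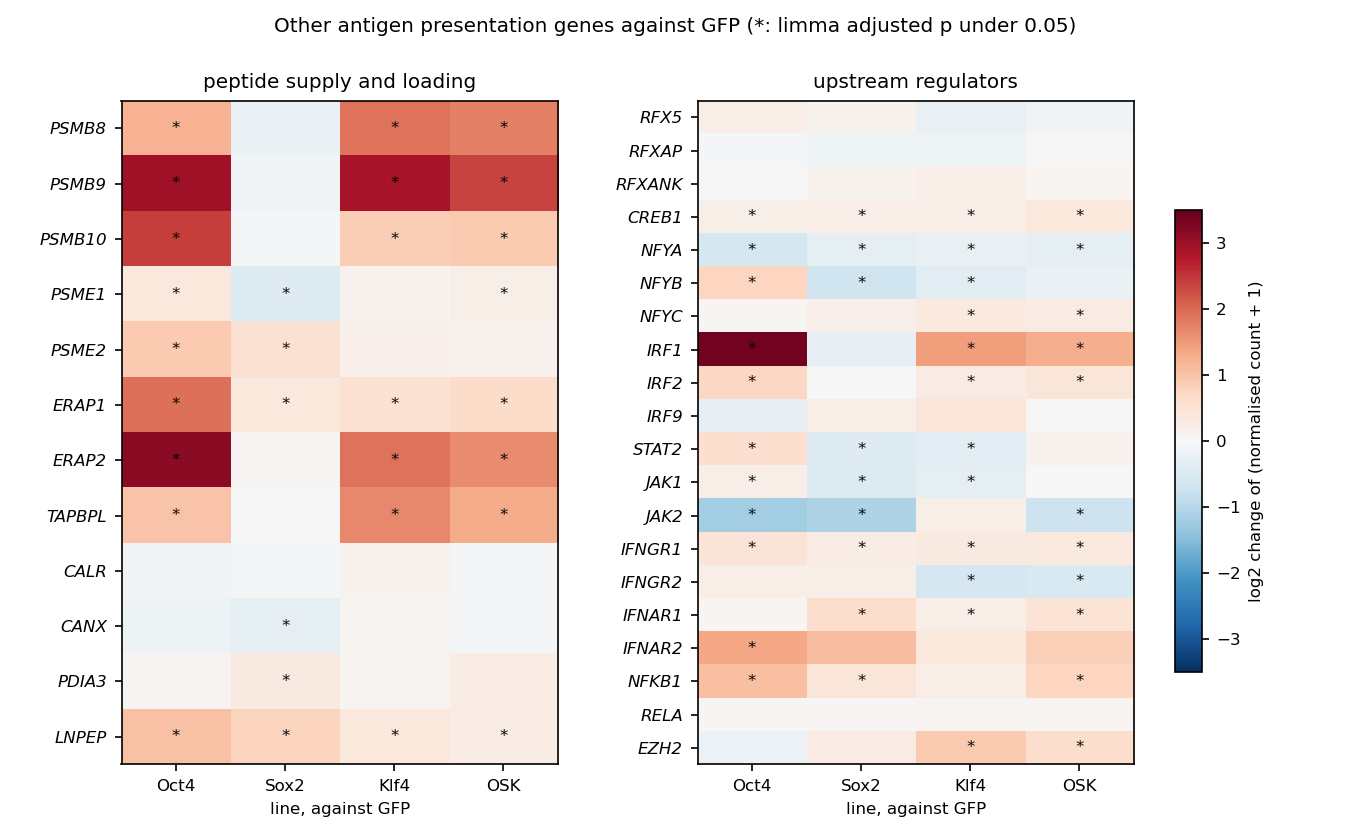
Log2 change from GFP (colour, log2 of normalised count + 1) of 12 peptide supply and loading genes (left) and 20 upstream regulators (right) in the Oct4, Sox2, Klf4 and OSK lines; a star marks a limma adjusted p under 0.05. IRF1 (3.39) and ERAP2 (3.15) in Oct4 are the darkest fields, and the immunoproteasome subunits carry stars in Oct4, Klf4 and OSK and none in Sox2.

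Class I-like genes and NK receptor ligands (11 of 14 tested) were higher for 5 genes in Oct4, 3 in Sox2, 7 in Klf4 and 5 in OSK, and lower for 0, 2, 0 and 1. The shares of all features, in the same order, were 20.1%, 21.7%, 17.6% and 19.7% higher and 17.2%, 19.9%, 16% and 20% lower. ULBP2, a stress-induced ligand of the NK receptor NKG2D, was at 11.9, 2.02 and 7.78 normalised counts in GFP and at 247 and 224 in OSK. Its log2 change was 5.08 in OSK (adjusted p = 2.64e-07), 2.44 in Oct4, 2.39 in Klf4 and 1.59 in Sox2, where it was lost without Sox2 replicate 2 (adjusted p = 0.0867) and was 0.98 without GFP replicate 2 (adjusted p = 0.0216). ULBP3, of the same family, rose by 2.71 in Klf4 and 2.08 in OSK, with 546 and 388 normalised counts in the Klf4 pair against 63.7 to 75.8 in GFP. The 3 RAET1 genes of that family were low throughout. RAET1G was at 56.9 and 51.5 in Oct4 and at 4.05 to 11.7 in GFP. RAET1L was at 39.0 and 31.9 in OSK and at 0 to 4.97 in GFP. RAET1E was at 15.1 and 32.1 in Oct4 and at 0 and 1.71 in Sox2. At such low values the log2 change depends on the added 1.

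Class II genes, which present peptides to CD4+ T cells, were mostly below the filter, and 3 of 12 were tested. Against GFP 1 was called, CD74, which was higher in Oct4, as were 20.1% of all features. CD74, the invariant chain, was at 64.6, 32.4 and 35.0 normalised counts in GFP and at 97.5 and 95 in Oct4 (log2 change 1.18, adjusted p = 0.00857). It did not pass without either Oct4 library (adjusted p = 0.0614 and 0.0545). In Sox2 its change of 0.64 (adjusted p = 0.13) passed without GFP replicate 1 (0.94, adjusted p = 0.0179). In OSK its change of -0.81 (adjusted p = 0.0578) passed without GFP replicate 2 (-0.99, adjusted p = 0.0353) or without either Klf4 library (adjusted p = 0.0441 and 0.0472).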

How the data were processed

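The table holds signal in normalised counts: judged from its numbers, each deposited value is a gene's count over 1 factor per library, kept to 2 decimals. STAR 2.7.1a, featureCounts 1.6.2 and the builds GRCh38/hg38 and GRCm38/mm10 are named, without roles, per the submitters' processing notes; strand use and the handling of reads with several matches are not given in the sources used here. Values up to 200 were all (100% in each library) within 0.0061 of a multiple of 1 read's worth, so whole reads could be recovered for count tests. The main test was limma 3.58.1 (R 4.3.3; lmFit, eBayes with trend) on log2(value + 1), a scale that shrinks changes of low genes. It covered the 18828 features that reached 10 normalised counts in at least 2 libraries, with all 11 libraries in 1 fit (6 residual and 9.21 prior degrees of freedom). Benjamini-Hochberg adjustment ran over all features tested in each of 10 comparisons, with a threshold of 0.05; 95% intervals are unadjusted. Ratios are of group means of normalised counts. The procedure was tested on simulated data that were simpler than these. They had the same spread setting for all features, changes in the Oct4 line alone, and no libraries that stood apart. Alternatives were edgeR 4.0.16 (quasi-likelihood) and DESeq2 1.42.0 on recovered reads, TMM scaling, pseudocounts of 0.5 and 5, no filter or one at 50, only the compared groups, a replicate block and each library left out. TMM over all nonzero features, and leaving out GFP replicate 1 with OSK replicate 1, were chosen after seeing the data. The members and lists were chosen with earlier results of these data known. Of the regulator list, 1 gene is not reported here. Named are all members, at most 5 genes per other list with the largest called change from GFP, the 6 features most like the members' mean, and, chosen after their values were seen, CALR, CANX and PDIA3. Same-numbered libraries deviated together only between OSK and GFP (r = 0.435 and 0.310; elsewhere -0.069 to 0.042), so the numbers were not taken as pairs.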

Additional observations from a re-analysis of the deposited data

Results flagged for a closer look

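The screen covered the members and the genes named from the other lists by the size of their change. Those are given where 1 line moved above GFP, another moved below it, and the difference between the 2 lines passed the limma test. Other genes of the lists were not screened. STAT2, for example, was at 4964 and 5393 normalised counts in Oct4, 3296 to 3569 in GFP, and 2340 and 2637 in Sox2. NLRC5 was higher than GFP in Klf4 and OSK and lower in Sox2. The log2 difference Sox2 minus Klf4 was -2.29 (adjusted p = 8.12e-08) and OSK minus Sox2 was 2.76 (adjusted p = 1.13e-08), with no overlap of libraries. The Sox2 change of NLRC5 against GFP (-0.65) did not keep its call in every setting. It was -0.60 without Sox2 replicate 1 and -0.42 without GFP replicate 1. RAET1G was higher than GFP in Oct4 and lower in Sox2, with a log2 difference of 5.07 between them, a size that depends on the added 1 because Sox2 held at most 2 reads a library. Its Sox2 call against GFP (-2.38, adjusted p = 0.00518) was lost without Sox2 replicate 1 (-1.67, adjusted p = 0.0870) and in a fit of the compared groups alone (adjusted p = 0.0586). At a floor of 3 reads per library the Oct4 mean of 54.2 normalised counts was at least 16.1-fold higher.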

How the results depend on the processing

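Over 22 alternatives, 62 of the 75 called member differences (of 90 member and comparison pairs) kept their call and direction in every one. The number of members called stayed within 1.5 times in every comparison but OSK vs Klf4, where 4 became 1 with TMM over all nonzero features and 2 without both libraries that stood apart, and ranged from 0 to 5 with 1 library left out. With the replicate block, all 90 pairs kept their side of the threshold and direction, and among the other named genes IFNAR2 in Oct4 (1.33, adjusted p = 0.0844) and RAET1L in Klf4 (2.42, adjusted p = 0.0675) lost their calls. Signs turned only for changes that were not called; the cause was not tested. HLA-E in Sox2 vs GFP gave 0.0019 with TMM over all nonzero features. HLA-B in OSK vs Oct4 ranged from -0.010 to 0.16 with 1 library left out, and TAP1 in OSK vs Klf4 from -0.20 to 0.23; without both libraries that stood apart they gave -0.010 and -0.053. RAET1L in Oct4 gave -0.47 (edgeR), -0.52 (DESeq2), -0.057 (pseudocount 5) and -0.42 (replicate block), and -0.86 to 0.87 with 1 library left out. In Sox2 it gave -0.16 (edgeR), -0.20 (DESeq2) and -0.028 (replicate block), and -0.028 to 1.26 with 1 left out. In Sox2 vs GFP, ERAP2 ranged from -0.0066 to 0.14, PSMB9 from -0.40 to 0.35 and PSMB10 from -0.086 to 0.028 with 1 left out. There ERAP2 gave -0.0066 and PSMB9 0.35 without both libraries that stood apart, and PSMB10 gave 0.041 with TMM over all nonzero features. With 1 left out, IFNAR2 in Klf4 ranged from -0.42 to 1.17 and RAET1G in OSK from -0.42 to 0.72. Without a filter the median of all features against GFP moved by -0.32 to -0.23. Groups of 2 libraries limit the estimate of spread, and a left-out library leaves a group with 1 that is assumed to vary like the others.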
